A study of Homo sapiens with 12 samples.

Results

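The clustered protocadherins are cell-surface adhesion molecules of the cadherin superfamily, encoded in 3 tandem arrays (alpha, beta and gamma) on chromosome 5q31. Genes were taken by symbol, as any member of the PCDHA, PCDHB and PCDHG series including the C-type genes of the alpha and gamma arrays. In this way 53 genes were found among 48114 gene rows of the deposited tables, but they fill only 18 rows. All 15 alpha genes are joined in 1 row (the PCDHA locus, chr5:140786136-141012347, hg38) and all 22 gamma genes in 1 row (the PCDHG locus, chr5:141330514-141512979), while each of the 16 beta genes has a row of its own. Thus the alpha and gamma arrays can be described only as a whole, and no single alpha or gamma gene has a value.

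In the alpha and gamma arrays each gene has its own promoter and a large first exon for the extracellular and transmembrane parts, which is spliced to 3 small exons common to the array and coding for the shared intracellular part. Beta genes consist of a single coding exon and lack the shared part. In neurons each cell uses only a few of these promoters, a choice linked to CTCF, cohesin and DNA methylation, and the resulting surface code serves self-recognition of neurites. In epithelial tumors these arrays are best known as a target of DNA methylation.

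RNA was sequenced from polyA-selected libraries of 2 lines of pancreatic ductal adenocarcinoma (PDAC). PANC-1, a basal-like line, received control siRNA (siCtrl) or siRNAs against QKI (siQKI) or RBFOX2 (siRBFOX2), both at 40 nM, and was collected after 48 h. HPAF-II, a classical line, received control siRNA alone. Each of the 4 groups holds 3 libraries, described by the submitters as biological replicates, and both knockdowns were compared with the same 3 siCtrl libraries. QKI and RBFOX2 are RNA-binding proteins that regulate splicing, so the comparisons ask how loss of each changed the RNA level of these loci in PANC-1, and how the loci differ between the lines. Each group stems from 1 cell line, so a difference between the lines is a difference between these 2 cultures.

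The values are gene counts divided by a size factor, called normalized counts below, and were scaled separately for the 9 PANC-1 and the 3 HPAF-II libraries. Before scaling, a PANC-1 library totalled 292248837 to 376192091 counts and an HPAF-II library 226697015 to 309720537. The counted unit is not a single sequenced fragment, so precision was read from the replicates. By the fitted log2 fold change, QKI was left at 19.7% of its siCtrl level after siQKI (5034 ± 412 against 25533 ± 869 normalized counts, mean ± SD, n = 3) and RBFOX2 at 13.5% after siRBFOX2 (2095 ± 352 against 15429 ± 76.8). RBFOX2 also fell in siQKI (log2 fold change −0.29, SE 0.09, adjusted p = 0.0207), a call lost without siCtrl replicate 2 or 3 or siQKI replicate 1 or 3 (adjusted p = 0.0545, 0.0540, 0.0508 and 0.0585). The epithelial genes KRT8, KRT18, KRT19, EPCAM and CDH1 were present in all groups. EPCAM and CDH1 were lower in PANC-1 siCtrl (4749 and 987 normalized counts) than in HPAF-II (120072 and 55655). In siQKI, CDH1 rose by limma (log2 fold change 1.39, adjusted p = 1.54e-07) and KRT18 fell (−0.20, adjusted p = 0.00716), while KRT8, KRT19 and EPCAM did not pass. In siRBFOX2, CDH1 rose by limma (0.53, adjusted p = 0.00177) and EPCAM did not pass. KRT8, KRT18 and KRT19 fell there (−0.23, −0.35 and −0.23, adjusted p = 0.000778, 0.000128 and 0.000595). The mesenchymal gene VIM averaged 1865318 normalized counts in PANC-1 siCtrl against 1472 in HPAF-II. Of the mesenchymal genes, VIM and ZEB1 fell in siQKI by limma (−0.13 and −0.28, adjusted p = 0.0152 and 0.00249). CDH2 rose in siQKI (0.26) and siRBFOX2 (0.22). The fibroblast genes COL1A1 and PDGFRB rose in siQKI (0.99 and 1.42) and in siRBFOX2 (0.42 and 0.89). Of 15 markers tested, 5 rose and 3 fell in each knockdown, beside 33% and 26.5% of all genes called. The immune gene PTPRC had a mean of 0 in both control groups.

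The exons common to an array are shown because the alpha and gamma rows can only be read through them and through the sum of all first exons. GENCODE v29 (GRCh38) lists 3 such exons per array, and the first 2, wholly coding in every gene of the array, are printed in lower case on the plus strand of chromosome 5 (alpha at chr5:140978949-140979007 and chr5:140982475-140982563, gamma at chr5:141494807-141494865 and chr5:141505393-141505481).
Alpha, first shared exon: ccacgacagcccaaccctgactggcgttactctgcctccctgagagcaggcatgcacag
Gamma, first shared exon: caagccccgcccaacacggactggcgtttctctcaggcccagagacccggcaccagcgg
Alpha, second shared exon: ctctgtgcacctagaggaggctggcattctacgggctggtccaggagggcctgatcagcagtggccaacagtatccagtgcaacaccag
Gamma, second shared exon: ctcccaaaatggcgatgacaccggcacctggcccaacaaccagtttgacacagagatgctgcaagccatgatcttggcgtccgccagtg
With the last shared exon these made up 2866 bases of the alpha array, or 3.98% of its exon bases, and 2181 bases of the gamma array, or 2.81%. The last shared exon is annotated for 14 of the 15 alpha and 21 of the 22 gamma genes. The values do not tell first exons from shared exons, so a change in the locus total cannot be assigned to a promoter or to a splice form.

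Promoters are shown for the beta genes because these are the only members with a level of their own. The windows for PCDHB2, the beta gene with the highest level in PANC-1, and for PCDHB9 and PCDHB14, the beta genes with the highest levels in HPAF-II, hold 150 bases before the RefSeq start (GRCh38.p14, plus strand). They lie at chr5:141094465-141094614, chr5:141187011-141187160 and chr5:141223193-141223342. Capitals mark every match of the letters CGCT, the core of the conserved element of protocadherin promoters at which CTCF is known to bind. A match of these 4 letters alone does not show that the element is present, and CTCF binding was not measured.
PCDHB2: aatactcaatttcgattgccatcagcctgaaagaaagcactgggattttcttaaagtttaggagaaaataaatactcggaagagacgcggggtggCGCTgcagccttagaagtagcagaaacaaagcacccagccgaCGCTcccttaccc
PCDHB9: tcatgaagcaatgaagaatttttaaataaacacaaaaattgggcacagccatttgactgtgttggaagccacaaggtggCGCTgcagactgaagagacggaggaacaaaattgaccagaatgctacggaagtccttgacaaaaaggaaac
PCDHB14: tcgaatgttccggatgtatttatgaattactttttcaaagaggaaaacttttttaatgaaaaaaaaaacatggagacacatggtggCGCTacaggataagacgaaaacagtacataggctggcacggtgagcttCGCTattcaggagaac
Windows of 300 bases (250 before and 50 after the start) were found for 47 of the 53 genes. On the gene strand and before the start, CGCT was present for 45 of these 47 genes (50 of 52 windows, 96.2%), against 48.4% of all 35116 promoter windows. PCDHA9 and PCDHB8 were the genes without a match there. Within 120 bases before the start the share was 44 of 52 windows (84.6%) against 31.8%, and on either strand of the whole window 51 of 52 (98.1%) against 70.0%. The longer run GGTGGCGCTGCAGG, which contains the core and was picked from these windows, occurred in 8 of 14 beta promoters and in 8 of the 35116 windows in all. The letters were found both in PCDHB2 and in PCDHB9 and PCDHB14, whose levels differ in opposite directions between the lines.

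**Figure D1:**
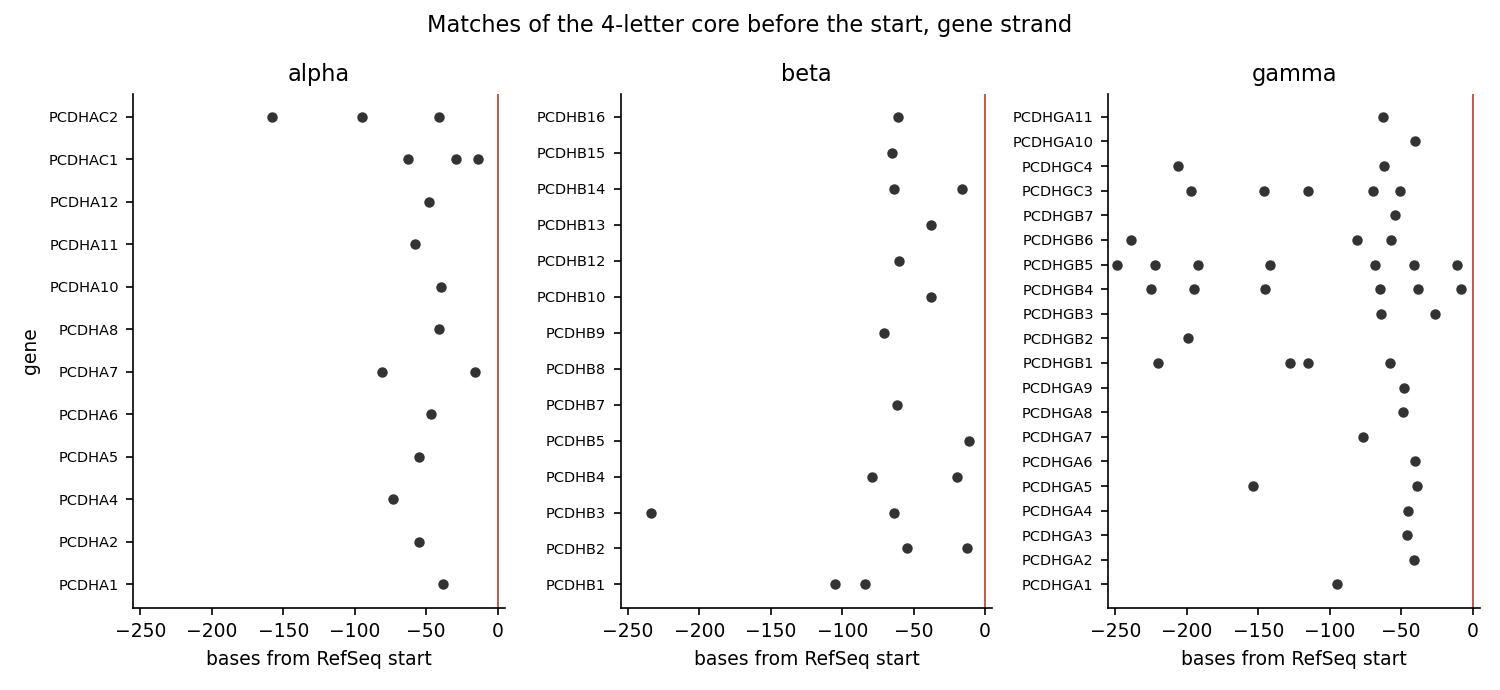
Position of CGCT before the RefSeq start of each member gene with a match (x axis, bases from the start, first base of the match; y axis, genes; 1 panel per array; points are matches on the gene strand, the line marks the start). Of 52 windows, 44 held a match within 120 bases of the start, and further matches were scattered.

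The PCDHG locus, which sums 22 genes, had the highest count of all members in PANC-1, and it fell in both knockdowns. Per kb of exon PCDHB2 was higher, but the 77.64 kb of the gamma row join the first exons of all 22 genes. A transcript holds only 1 of these, so the levels per kb of this row and of PCDHB2 are not comparable. The normalized counts of the PCDHG locus were 24164, 25165 and 25689 in the siCtrl libraries. They were 10615, 10606 and 10069 after siQKI, and 16713, 15858 and 14911 after siRBFOX2. The 3 groups did not overlap, with the siQKI libraries lowest, the siRBFOX2 libraries between and the siCtrl libraries highest. The log2 fold change was −1.26 in siQKI (SE 0.05, 2.40-fold lower, adjusted p = 1.12e-10) and −0.66 in siRBFOX2 (SE 0.05, 1.58-fold lower, adjusted p = 2.24e-07). The fall was larger after siQKI, as the direct comparison of the knockdowns gave a log2 difference of −0.60 (SE 0.05, adjusted p = 6.53e-07). In these bulk libraries, fewer cells with gamma RNA and less gamma RNA per cell cannot be told apart.

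Beside this change of the locus, the letters bound by the silenced proteins were searched in the last exon common to the gamma array, on the sense strand (2033 bases). The QKI motif ACTAAC was not in this exon, and 19.0% of 13717 transcripts held it in the last 2033 bases. The RBFOX motif TGCATG was present 2 times, and 12.4% of these transcripts held it at least as often. In the last common alpha exon (2718 bases) each motif was found 2 times, and 4.16% (ACTAAC) and 19.1% (TGCATG) of 10631 transcripts held at least as many matches. Only these exact letters were searched, whereas the motif the paper found near QKI-regulated exons, (A/T/G)CTAAC, also allows T or G first. Introns and first exons were not searched.

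The PCDHA locus did not follow the gamma locus. It had 3892, 3965 and 4256 normalized counts in siCtrl, 4374, 3657 and 4045 in siQKI, and 4413, 4027 and 3761 in siRBFOX2. All 3 groups overlapped. The log2 fold changes were −0.01 in siQKI (SE 0.08, adjusted p = 0.959) and 0.01 in siRBFOX2 (SE 0.08, adjusted p = 0.957), and neither passed the threshold. Within the alpha interval lie 6 further rows, and the gamma interval holds the pseudogene PCDHGB8P. With the strand of counting not stated, reads of overlapping transcripts could not be separated in these files.

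**Figure D2:**
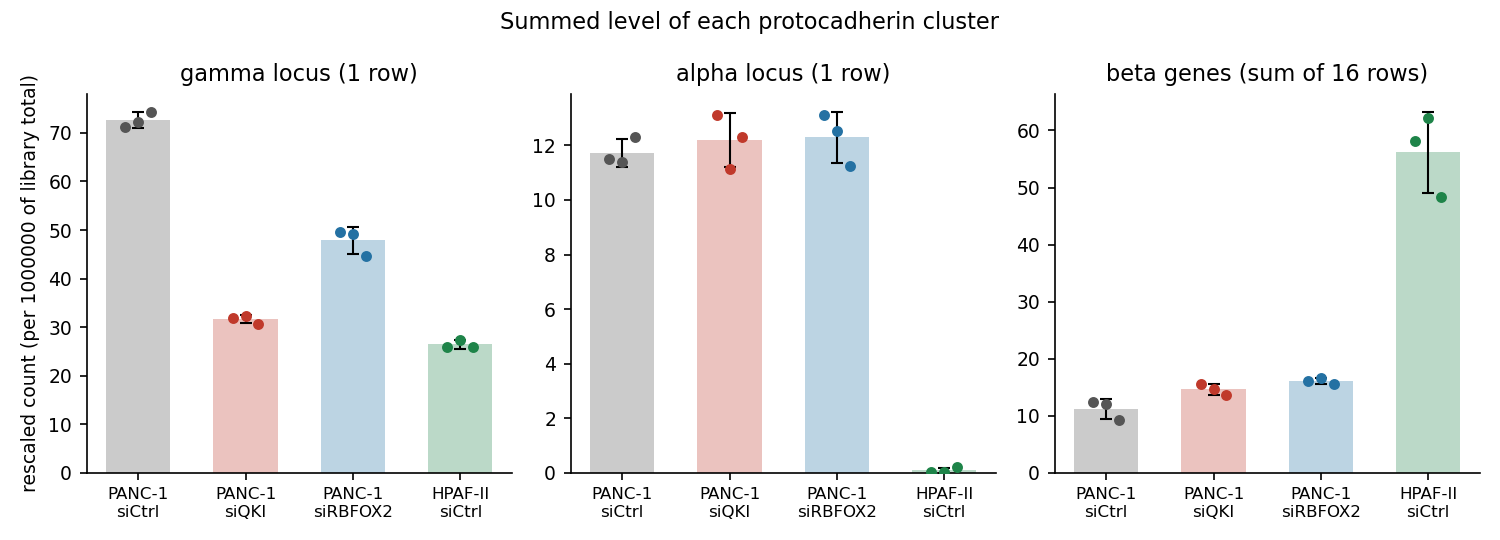
Level of each array in the 12 libraries (y axis, rescaled counts, that is normalized counts per 1000000 of the library total, linear from 0; x axis, group; points are libraries, bars means and whiskers SD, n = 3). The gamma locus fell from 72.7 ± 1.58 in PANC-1 siCtrl to 31.6 ± 0.854 after siQKI and 47.8 ± 2.82 after siRBFOX2, the alpha locus was near 0 in HPAF-II, and the beta sum was highest in HPAF-II.

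Beta genes other than PCDHB2 were low in PANC-1, and the few beta genes that passed the test rose. Of the 16 beta rows, 14 averaged 10 normalized counts or more and were tested. PCDHB1 and PCDHB5 were under this limit, with 0 to 15.7 and 0 to 44.0 normalized counts per PANC-1 library. After siQKI, 2 of 14 rose in the limma test (PCDHB2 and PCDHB16) and none fell, where 14.9% of all genes rose and 18.1% fell. After siRBFOX2, 3 of 14 rose (PCDHB2, PCDHB8 and PCDHB16) and none fell, where 12% of all genes rose and 14.5% fell. At an unadjusted p under 0.05, 5 of 14 were higher and 0 lower in each comparison. The share of all genes past this unadjusted threshold was not counted.

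Counting all 16 tested rows, siQKI called 3 (2 higher and 1 lower), where 33% of the 22544 genes tested were called (14.9% higher and 18.1% lower). The siRBFOX2 comparison called 4 (3 higher and 1 lower), beside 26.5% of all genes (12% higher and 14.5% lower). The share of members called was thus not above that of all genes. Without siCtrl replicate 3 or siRBFOX2 replicate 1, siRBFOX2 called 2 members, and without siCtrl replicate 3 or siQKI replicate 2, siQKI called 2. The median log2 fold change of the 16 rows was 0.37 in siQKI and 0.65 in siRBFOX2, against 0.03 and 0.01 over all genes tested. Between the knockdowns the PCDHG locus alone was called, as lower in siQKI, beside 21.5% of all genes (9.93% higher and 11.6% lower).

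PCDHB2 was the most abundant beta gene of PANC-1. Its normalized counts were 1954, 1965 and 1579 in siCtrl, 2701, 2730 and 1876 in siQKI, and 2834, 2822 and 2719 in siRBFOX2. All siRBFOX2 libraries lay above siCtrl, whereas the siQKI group overlapped siCtrl through the third siQKI library. The log2 fold change was 0.40 in siQKI (SE 0.13, adjusted p = 0.0264) and 0.61 in siRBFOX2 (SE 0.13, adjusted p = 0.00220). The siQKI call was lost when siCtrl replicate 3, siQKI replicate 1 or siQKI replicate 2 was left out (adjusted p = 0.126, 0.116 and 0.126), and the siRBFOX2 call was kept without any of the 9 libraries.

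PCDHB16 had 221, 146 and 153 normalized counts in siCtrl, 250, 326 and 411 in siQKI, and 371, 290 and 265 in siRBFOX2. Both knockdowns lay wholly above siCtrl. The log2 fold change was 0.92 in siQKI (SE 0.26, adjusted p = 0.0120) and 0.84 in siRBFOX2 (SE 0.26, adjusted p = 0.0244). The siQKI call was lost without siQKI replicate 3 (adjusted p = 0.0691), and the siRBFOX2 call without siCtrl replicate 2, siCtrl replicate 3 or siRBFOX2 replicate 1 (adjusted p = 0.0839, 0.0773 and 0.104). Both PCDHB2 and PCDHB16 overlap a further row without a symbol, as does PCDHB3.

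PCDHB8 had 437, 454 and 263 normalized counts in siCtrl, 534, 536 and 481 in siQKI, and 647, 552 and 514 in siRBFOX2. Both knockdowns lay above siCtrl, and the third siCtrl library was the lowest. The log2 fold change was 0.60 in siRBFOX2 (SE 0.20, adjusted p = 0.0393) and 0.47 in siQKI (SE 0.20, adjusted p = 0.0958), and the knockdowns did not differ by the test (log2 difference −0.14, SE 0.20, adjusted p = 0.712). Without siCtrl replicate 3 the siRBFOX2 value was 0.35 (adjusted p = 0.180). The call was also lost without siQKI replicate 2, siRBFOX2 replicate 1 or siRBFOX2 replicate 2 (adjusted p = 0.0524, 0.138 and 0.0725).

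**Figure D3:**
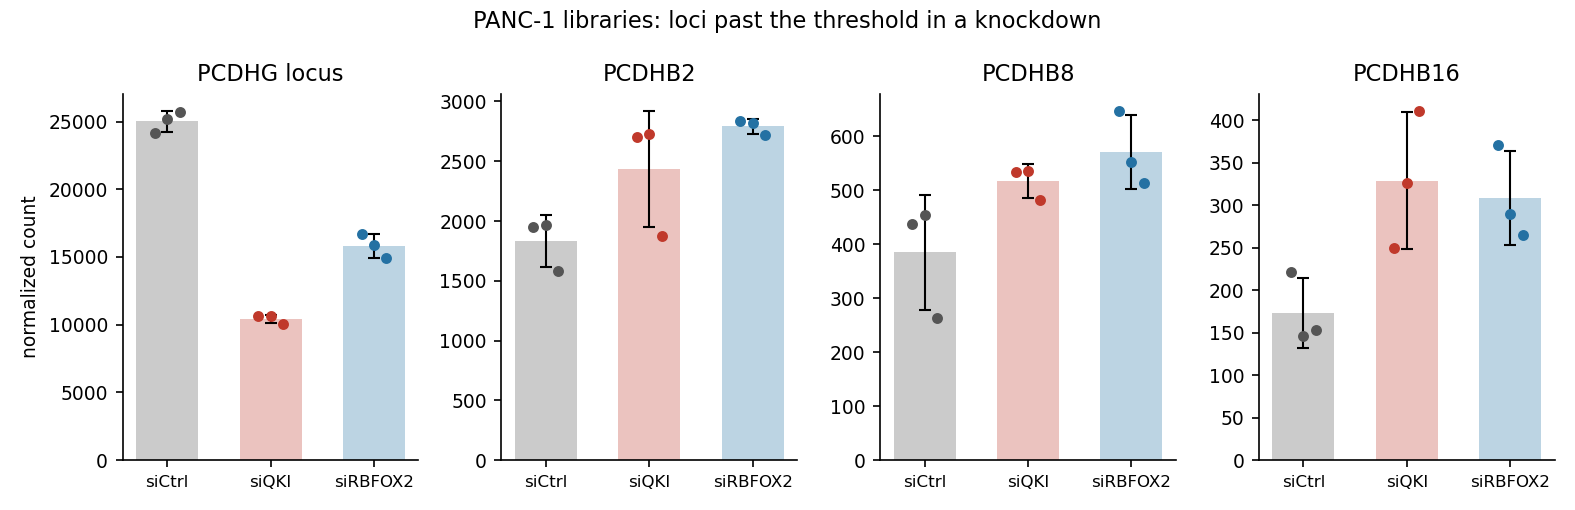
Normalized counts in the 9 PANC-1 libraries of the 4 loci past the threshold in either knockdown (y axis linear from 0, a scale of its own in each panel; x axis, group; points are libraries, bars means and whiskers SD, n = 3). The gamma locus shows 3 separate groups, whereas PCDHB2, PCDHB8 and PCDHB16 rise by less than 2-fold with 1 lower siCtrl or siQKI library in places.

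Of the other 11 beta rows tested, most had positive log2 fold changes that did not pass the test. PCDHB3 had 70.8, 133 and 115 normalized counts in siCtrl, 133, 167 and 214 in siQKI, and 161, 195 and 158 in siRBFOX2. Both knockdowns lay above siCtrl, at log2 fold changes of 0.71 (SE 0.32, adjusted p = 0.110) and 0.73 (SE 0.32, adjusted p = 0.116). PCDHB9 was at 0.93 in siRBFOX2 (SE 0.38, adjusted p = 0.0857), again with all 3 libraries above siCtrl.

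PCDHB14 and PCDHB11 had negative values in both knockdowns. PCDHB4 was at −0.57 in siQKI (SE 0.84, adjusted p = 0.666) and 0.74 in siRBFOX2 (SE 0.84, adjusted p = 0.584). PCDHB13 was at 0.31 in siQKI (adjusted p = 0.450) and −0.01 in siRBFOX2 (adjusted p = 0.978). For PCDHB14 the log2 fold change was −0.57 in siQKI (SE 0.34, adjusted p = 0.235) and −0.23 in siRBFOX2 (SE 0.34, adjusted p = 0.685), and its siCtrl libraries ranged from 275 to 595 normalized counts. For PCDHB11 it was −0.67 (SE 0.40, adjusted p = 0.240) and −0.72 (SE 0.40, adjusted p = 0.226). PCDHB15 had the largest value, 2.50 in siQKI, with an SE of 1.12 (adjusted p = 0.106). It rested on 0.999 to 30.6 normalized counts in siCtrl and 19.2 to 37.6 in siQKI. The means were 10.9 and 28.4, so the fitted value was enlarged by the lowest siCtrl libraries.

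**Figure D4:**
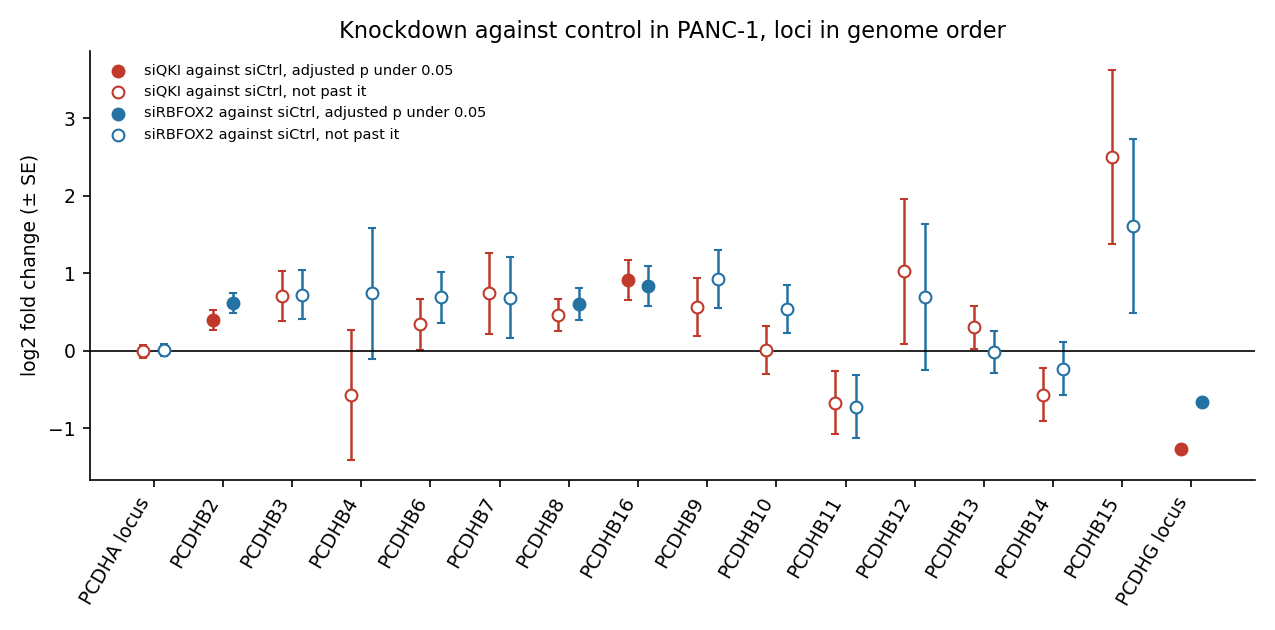
Log2 fold change ± SE of the 16 tested rows (y axis) in genome order (x axis) for siQKI and siRBFOX2 against the same siCtrl libraries; filled points have an adjusted p under 0.05. The gamma locus is the only row whose filled points lie under 0, the alpha locus lies at 0, and the filled beta points lie above 0.

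As a sum over the 16 rows, the beta array was higher in both knockdowns. It reached 4184, 4205 and 3194 normalized counts in siCtrl, 5196, 4809 and 4477 in siQKI, and 5417, 5327 and 5216 in siRBFOX2. The groups did not overlap with siCtrl, and the third siCtrl library was the lowest of the 9. The log2 ratio to siCtrl was 0.32 in siQKI and 0.46 in siRBFOX2. When only beta genes without an overlapping row were summed, which leaves out PCDHB1, PCDHB2, PCDHB3 and PCDHB16, these ratios were 0.11 and 0.22. PCDHB2 accounted for 47.6% ± 1.56 of the beta sum in siCtrl, 50.2% ± 7.59 in siQKI and 52.5% ± 0.443 in siRBFOX2 (SD, n = 3).

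The lines differed in the level of all 3 arrays. HPAF-II was compared with PANC-1 siCtrl without a test because the tables were scaled apart. HPAF-II levels are given in rescaled counts, that is normalized counts per 1000000 of the library total. Of 17 rows that averaged 10 normalized counts or more in 1 of the lines, 11 were at least 2-fold higher and 5 at least 2-fold lower in HPAF-II, where 27.2% and 25.2% of 24673 rows compared were. The HPAF-II libraries lay wholly above PANC-1 siCtrl for 10 rows and wholly below for 4. How many of all rows compared lay wholly apart was not counted, so these 2 numbers have no background. The median log2 ratio of the 17 rows was 1.56, against 0.08 over all rows compared. Many of these levels were low, and with a pseudocount of 1 rescaled count 10 of the rows were at least 2-fold apart.

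The alpha locus was near 0 in HPAF-II. It held 7.40, 10.3 and 58.7 normalized counts there, or 0.0897 ± 0.101 rescaled counts (SD, n = 3), against 11.7 ± 0.515 in PANC-1 siCtrl. The summed level was 131-fold lower (log2 ratio −7.03), and the third HPAF-II library was the highest. Without that library the log2 ratio was −8.56. The HPAF-II libraries also differed in VIM, a gene of PANC-1 rather than HPAF-II, with 4248, 81.3 and 85.3 normalized counts, so VIM was highest in the first library and the alpha locus in the third. CDH2, another mesenchymal gene, was listed at 0 in all 3.

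The gamma locus was also lower in HPAF-II. It had 7246, 7884 and 7372 normalized counts, which gave 26.4 ± 0.885 rescaled counts against 72.7 ± 1.58 in PANC-1 siCtrl (2.75-fold lower, log2 ratio −1.46). The HPAF-II libraries lay below all siCtrl libraries of PANC-1. QKI itself was lower in HPAF-II as well, at 4102 ± 790 normalized counts and a log2 ratio of −2.36, and RBFOX2 was at −0.55. Whether either has a part in the gamma level of HPAF-II was not tested.

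The beta array was higher in HPAF-II, at 58.1, 62.1 and 48.3 rescaled counts against 12.3, 12.1 and 9.25 in PANC-1 siCtrl (5.00-fold, log2 ratio 2.32). Without the beta genes that overlap another row the log2 ratio was 3.30. A block of 8 genes, PCDHB8 to PCDHB14 in genome order, was picked with the levels known. Its high share in HPAF-II follows in part from this choice. These 8 genes made up 96.3% ± 2.06 of the beta sum in HPAF-II and 43.5% ± 2.03 in PANC-1 siCtrl. All 8 lay wholly above PANC-1 siCtrl, as did the genes flanking them, PCDHB7 (log2 ratio 1.48) and PCDHB15 (log2 ratio 3.53), which were low in both lines at 0.399 ± 0.0687 and 0.475 ± 0.319 rescaled counts in HPAF-II. By contrast, PCDHB2 and PCDHB3, nearer to the alpha array, lay wholly below. The other genes on that side did not separate. PCDHB4, PCDHB5 and PCDHB6 overlapped between the lines, at log2 ratios of 0.67, 1.13 and −1.15. The value of PCDHB5 rested on the third HPAF-II library, at 0, 0.0120 and 0.300 rescaled counts. PCDHB1 was at 0 in HPAF-II.

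PCDHB14 had the highest mean level per exon length among beta genes in HPAF-II. It held 14.5, 18.7 and 13.5 rescaled counts in HPAF-II and 0.961, 1.71 and 0.796 in PANC-1 siCtrl, a log2 ratio of 3.74. PCDHB9 showed the largest ratio of the array, with 12.2, 13.9 and 9.33 rescaled counts against 0.232, 0.299 and 0.382 (log2 ratio 5.23). PCDHB12 followed at 4.70 and PCDHB10 at 3.92. PCDHB2 went the other way, with 0.296, 0.439 and 1.07 rescaled counts in HPAF-II against 5.77, 5.64 and 4.57 (log2 ratio −3.13).

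Levels between beta genes were compared per kilobase of exon. In PANC-1 siCtrl the order was PCDHB2 (1.29 ± 0.159 rescaled counts per kb), PCDHB8 (0.408 ± 0.113), PCDHB14 (0.239 ± 0.101) and PCDHB11 (0.159 ± 0.0503). PCDHB2 stood apart from all others, and PCDHB8 and PCDHB14 overlapped in their libraries. In HPAF-II the order was PCDHB14 (3.22 ± 0.573), PCDHB9 (2.67 ± 0.518), PCDHB8 (1.95 ± 0.276) and PCDHB10 (1.73 ± 0.355), and each overlapped its neighbour in this order. PCDHB2 also led in siQKI (1.79 ± 0.351) and siRBFOX2 (2.05 ± 0.0771).

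**Figure D5:**
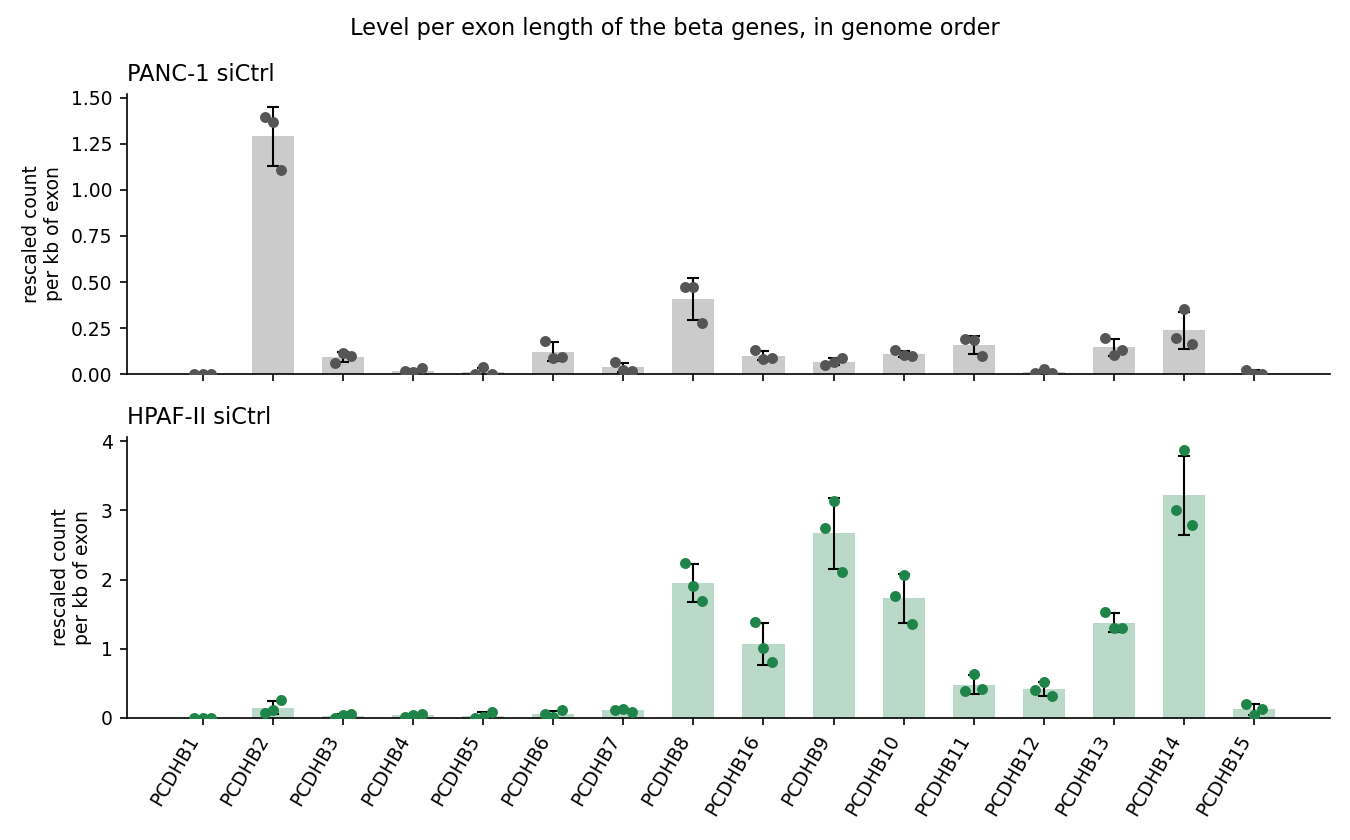
Level of the 16 beta genes in genome order (x axis) in PANC-1 siCtrl and HPAF-II siCtrl (y axes, rescaled counts per kb of exon, linear from 0, with different scales in the upper and lower panels; points are libraries, bars means and whiskers SD, n = 3). PCDHB2 leads in PANC-1 at 1.29, whereas the genes from PCDHB8 to PCDHB14 carry the signal in HPAF-II, with PCDHB14 at 3.22.

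Beta genes are close copies, so reads can be placed on more than 1 of them. Of 100-base windows of the transcript, 25.7% of PCDHB8 were also found in another protocadherin transcript, mostly PCDHB13, and 24.7% of PCDHB10, mostly PCDHB9. The share was 15.1% for PCDHB13, 11.4% for PCDHB2, 10.7% for PCDHB9 and 8.14% or less for the other beta genes. How such reads were counted is not stated, so the values of these pairs are uncertain. The shares do not measure the size of the error in the counts.

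Protocadherins outside the arrays were read beside the members. Of 12 such genes, 7 were tested, of which 5 rose and none fell in siQKI (14.9% of all genes rose and 18.1% fell), and 3 rose and none fell in siRBFOX2 (12% and 14.5%). At an unadjusted p under 0.05, 0 were lower in siQKI and 1 in siRBFOX2. Their median log2 fold change was 0.57 and 0.26, against 0.03 and 0.01 over all genes. PCDH15 was at −0.02 and −1.38 (adjusted p = 0.988 and 0.117) and PCDH19 at −1.94 and −0.92 (adjusted p = 0.482 and 0.776). PCDH18 rose in both (0.95, SE 0.13, adjusted p = 3.30e-05, and 0.70, SE 0.13, adjusted p = 0.000787), as did PCDH20 (0.79 and 0.60) and PCDH7 (0.38 and 0.26). The siRBFOX2 call of PCDH20 was lost without siRBFOX2 replicate 1 (adjusted p = 0.0586). PCDH1, a protocadherin of epithelia, rose in siQKI (0.57, SE 0.14, adjusted p = 0.00557) and was at −0.13 in siRBFOX2, a difference that itself passed the test (0.70, adjusted p = 0.00205). PCDH9 rose in siQKI (0.77, SE 0.16, adjusted p = 0.00177) and was at 0.32 in siRBFOX2 (adjusted p = 0.169), while the difference between the knockdowns did not pass (adjusted p = 0.0671).

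The next list held genes linked to promoter choice in the arrays. Of 17 (CTCF, cohesin and its loaders and release factors, SMCHD1, SETDB1, WIZ and DNA methyltransferases), 1 rose and 6 fell in siQKI, where 14.9% of all genes rose and 18.1% fell, and 2 rose and 9 fell in siRBFOX2, where 12% rose and 14.5% fell. With upper quartile scaling 3 in place of 7 were called in siQKI. RAD21, the kleisin of cohesin, rose in both (0.58, SE 0.04, adjusted p = 2.47e-08, and 0.52, SE 0.04, adjusted p = 1.76e-07). CTCF, known to bind the conserved promoter element named above, was at 0.04 in siQKI (adjusted p = 0.578). It rose in siRBFOX2 (0.16, adjusted p = 0.0126, and 0.0521 without siCtrl replicate 1). SMCHD1, a silencer of the arrays, fell in both (−0.20, adjusted p = 0.0139, and −0.38, adjusted p = 0.000165), and DNMT3B did not pass in either (−0.21 and −0.03). The siQKI call of SMCHD1 was lost without siCtrl replicate 3 or siQKI replicate 1 (adjusted p = 0.0577 and 0.0712).

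Among 17 intracellular partners and proteases of the protocadherins (focal adhesion kinases, the WAVE complex, RET, ADAM10 and gamma-secretase), 4 rose and 5 fell in siQKI, and 3 rose and 3 fell in siRBFOX2, beside 33% and 26.5% of all genes called. RET, a receptor tyrosine kinase, rose in siQKI (0.82, SE 0.24, adjusted p = 0.0152) and was at 0.07 in siRBFOX2. Its call was lost without siCtrl replicate 3, where the value was 0.51 (adjusted p = 0.0795), or siQKI replicate 1 (adjusted p = 0.0654). The other called changes in this list were under 1.5-fold, and CYFIP2, at 2.03 in siQKI and 2.56 in siRBFOX2, did not pass the test (adjusted p = 0.388 and 0.291).

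Of the 2 listed genes that lie between the beta and gamma arrays, SLC25A2 was too low to be tested. TAF7, a subunit of TFIID encoded there (chr5:141318490-141320784), had log2 fold changes of −0.01 in siQKI (SE 0.04, adjusted p = 0.842) and −0.08 in siRBFOX2 (SE 0.04, adjusted p = 0.113). Of 17 tested neighbours on 5q31, none rose and 5 fell in siQKI, where 33% of all genes were called, and 3 rose and 7 fell in siRBFOX2, where 26.5% were. Their median log2 fold changes were −0.09 and −0.12. RELL2 fell in both (−0.90, SE 0.09, adjusted p = 1.51e-06, and −1.31, SE 0.09, adjusted p = 7.94e-08), as did ARAP3 (−0.77, SE 0.13, adjusted p = 0.000222, and −0.47, SE 0.13, adjusted p = 0.0123). The siRBFOX2 call of ARAP3 was lost without siCtrl replicate 3 or siRBFOX2 replicate 3 (adjusted p = 0.0573 and 0.0545). The pseudogenes of the arrays, of which 2 of 3 rows found were tested, gave no call in either knockdown by limma, and PCDHGB8P alone had an unadjusted p under 0.05, lower in siQKI.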

How the data were processed

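PolyA-selected libraries were sequenced as 150-base read pairs. Per the labels, the authors used STAR 2.7.5a, SAMtools, Picard, DESeq2, hg38 and FAST DB v2022_1, and the deposited signal values are gene counts divided by a DESeq2 size factor, estimated apart for PANC-1 and HPAF-II. Each library moves in whole steps, but 82.1% to 84.8% of low values (30 steps or fewer) were divisible by 3, so a step is no fragment and no count model was used. The handling of strand and read pairs is not given in the sources used here.

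The 3 PANC-1 groups were tested by limma 3.58.1 (R 4.3.3, trended eBayes) on log2(normalized count + 1) in 1 fit of 9 libraries, with a mean of at least 10 and Benjamini-Hochberg adjusted p-values over 22544 genes. The pseudocount shrinks fold changes of low genes, whereas single libraries with very low values can enlarge them, as for PCDHB15. HPAF-II was set beside PANC-1 in counts per 1000000 of the library total (pseudocount 0.01). Exon lengths came from GENCODE v29, and promoters from RefSeq. Python 3.11.15 was used.

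Rows past the threshold in a knockdown, the leading row of each array per group, joined rows and fixed list genes were named, with list genes changed at least 1.5-fold. PCDHB1, PCDHB3, PCDHB4, PCDHB5, PCDHB6, PCDHB7, PCDHB9, PCDHB10, PCDHB11, PCDHB12, PCDHB13 and PCDHB15 were named after their values were seen. The block from PCDHB8 to PCDHB14 was also set after its values were seen. The same holds for PCDH15, PCDH19, CYFIP2, SLC25A2 and PCDHGB8P, and for the markers VIM and CDH2 by library. The members and lists were chosen with earlier results of these data known. P-values measure the spread between these libraries.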

Additional observations from a re-analysis of the deposited data

How the results depend on the processing

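Counts of called members and fold changes in PANC-1 were recomputed with other pseudocounts, filters, scaling, sample sets, a replicate block and without each library, and counts between the lines with other scaling, filter and pseudocount and without each control library. Array sums were recomputed with upper quartile scaling, without single libraries and, for beta, without overlapping genes. Levels per kb, beta shares, single ratios between the lines and motif counts had no alternative. The fall of the PCDHG locus passed the threshold in every one of the 18 alternatives of each knockdown, with log2 fold changes of −1.29 to −1.20 in siQKI and −0.70 to −0.62 in siRBFOX2. At an adjusted p under 0.01, 1 member was called in siQKI and 2 in siRBFOX2. Without the mean-variance trend 2 were called in siRBFOX2. Without single libraries, 2 to 4 members were called in siQKI and 2 to 5 in siRBFOX2. With a pseudocount of 1 rescaled count, 10 rows were at least 2-fold apart between the lines, in place of 16. The summed gamma level had a log2 ratio of −1.21 in siQKI and −1.53 in HPAF-II with upper quartile scaling. The summed beta level was at 0.11 in siQKI, 0.22 in siRBFOX2 and 3.30 in HPAF-II over genes without an overlapping row. This alternative leaves out PCDHB1, PCDHB2, PCDHB3 and PCDHB16. The summed alpha level in HPAF-II ranged from −8.56 to −6.60 without single libraries. Same-numbered libraries did not deviate together (r = −0.032 to 0.023 over 9 pairs), so they were not treated as paired, and with the replicate block 3 members were called in siQKI, 4 in siRBFOX2 and 1 between the knockdowns. Over all genes named by the rule, alternatives ended a call 58 times and added one 5 times. No direction of a called result was reversed in these alternatives. The depth in fragments is unknown, so the precision of low beta genes rests on 3 libraries per group.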
